A study of Mus musculus with 4 samples.

Results

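The phagocyte NADPH oxidase genes Cybb, Cyba, Ncf1, Ncf4 and Rac2 and the superoxide dismutase gene Sod2 were read across 4 RNA-seq libraries of mouse peritoneal macrophages. The 6 genes were selected by gene symbol, with earlier results of these data known. All 6 of 6 were found among the 54532 genes of the deposited count table. All 6 were also among the 13715 genes that had at least 10 reads in at least 1 library, the set kept for every comparison below.

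The phagocyte NADPH oxidase is an enzyme of the cell surface and the phagosome membrane that passes electrons from NADPH in the cytosol to oxygen on the other side, which makes superoxide. Its catalytic chain, gp91phox (NOX2, gene Cybb), is held in the membrane together with p22phox (Cyba), while other subunits, p47phox (Ncf1) and p40phox (Ncf4) among them, wait in the cytosol and join the membrane pair, with a GTP-bound Rac protein, when the cell is stimulated. Sod2 encodes the manganese superoxide dismutase of the mitochondrial matrix, which turns superoxide made in mitochondria into hydrogen peroxide, so its substrate comes from another compartment than the oxidase product, and in macrophages it is known as a gene that inflammatory signals induce.

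The libraries were made from total RNA of peritoneal macrophages of wild-type (WT) mice, 1 library for each combination of medium and inhibitor. The medium was labelled 0% 4T1, called normal medium (NM) here, or 30% 4T1, called 4T1-CM because the study describes it as medium conditioned by 4T1 cells, a mouse mammary carcinoma line. The inhibitor was 10 µM CH223191, an antagonist of the aryl hydrocarbon receptor (AHR), or its solvent DMSO, and the study's methods describe peritoneal macrophages as cells elicited with thioglycollate in BALB/c mice and given the inhibitor before the conditioned medium. The libraries are called NM-DMSO, NM-CH223191, CM-DMSO and CM-CH223191 below. Neither the length of treatment nor the age and number of the mice behind a library is in the labels. The comparisons ask how the 6 genes differed between 4T1-CM and NM, once under DMSO and once under CH223191, and between CH223191 and DMSO, once in each medium. The 2 comparisons of the medium have no library in common, and neither have the 2 of the inhibitor. Each comparison of the medium does share libraries with the comparisons of the inhibitor.

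The libraries held 15535405 to 17557127 reads in genes, and the scaling factors by the TMM method lay between 0.986 and 1.026. Levels are given as reads and as CPM (the reads of a gene relative to the scaled size of its library) and, between genes, as CPM per kilobase of gene length (RPKM). All 7 macrophage markers were kept and among them Lyz2 had 189512 to 577870 reads and Adgre1 3912 to 17920. The summed level of these 7 was 14030 CPM in NM-DMSO, 18260 in NM-CH223191, 37500 in CM-DMSO and 40030 in CM-CH223191. Most of each sum was Lyz2, at 11890, 15190, 32950 and 35570 CPM in the same order. With 1 library per condition there was no replicate check, so the differences below compare libraries. The 95% intervals rest on read counts alone and hold no spread between cultures. Reads copied by PCR are not independent molecules, so the intervals can be too narrow even for counting error. In bulk samples, fewer cells of a type and less RNA of a gene per cell cannot be told apart.

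Promoter sequences are shown to set the members that stood high in 4T1-CM, Cybb and Sod2, beside Cyba, which stood low, and Ncf1. RefSeq (GRCm38.p6) gave the 250 bases before the start for these 4 of 6 members, and none was used for Ncf4 or Rac2. They lie at chrX:9469325-9469574 (minus strand) for Cybb, chr17:13007589-13007838 (plus strand) for Sod2, chr8:122432941-122433190 (minus strand) for Cyba and chr5:134229626-134229875 (minus strand) for Ncf1. The RefSeq starts of Cybb and Sod2 lie inside the longer gene spans of the deposited table. They are printed 5′ to 3′ up to the base before the start, in lower case, with capitals for matches to the motifs searched:
Cybb: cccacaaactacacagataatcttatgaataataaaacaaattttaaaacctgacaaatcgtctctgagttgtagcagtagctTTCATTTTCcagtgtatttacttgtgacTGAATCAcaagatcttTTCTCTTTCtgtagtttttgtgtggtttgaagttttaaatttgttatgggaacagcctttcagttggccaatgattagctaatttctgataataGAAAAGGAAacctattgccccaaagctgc
Sod2: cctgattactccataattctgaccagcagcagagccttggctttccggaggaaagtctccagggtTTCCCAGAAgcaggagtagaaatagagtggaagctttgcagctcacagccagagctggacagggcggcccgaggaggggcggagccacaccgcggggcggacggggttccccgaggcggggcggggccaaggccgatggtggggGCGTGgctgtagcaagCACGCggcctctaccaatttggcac
Cyba: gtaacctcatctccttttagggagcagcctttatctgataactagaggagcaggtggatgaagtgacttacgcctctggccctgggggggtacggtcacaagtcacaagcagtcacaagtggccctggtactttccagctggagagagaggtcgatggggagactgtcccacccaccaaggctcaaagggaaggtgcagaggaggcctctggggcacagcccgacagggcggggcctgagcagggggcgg
Ncf1: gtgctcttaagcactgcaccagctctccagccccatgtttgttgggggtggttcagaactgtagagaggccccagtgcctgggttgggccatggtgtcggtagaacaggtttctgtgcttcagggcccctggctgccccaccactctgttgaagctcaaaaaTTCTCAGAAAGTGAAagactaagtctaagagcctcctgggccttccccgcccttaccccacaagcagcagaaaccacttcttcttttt

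The motifs were searched on both strands. The IRF letters GAAANNGAA were found 3 times in the Cybb promoter, beginning 167, 123 and 29 bases before the start, and once in that of Ncf1, and 7.13% of all 32851 promoters of the same length hold them. The AP-1 letters TGANTCA, held by 6.75% of promoters, stood 139 bases before the Cybb start. The AHR core GCGTG was found at 41 and 25 bases before the Sod2 start and in none of the other 3, while 28.2% of all promoters hold it. The STAT letters TTCNNNGAA (7.02% of promoters) were found in Sod2, 185 bases before the start, and in Ncf1, 88 bases before it, where they overlap the IRF match. The searches for GAGGAAG (PU.1 type, 10.6%), TGACNNNGC (antioxidant response element core, 10.2%) and GGNNTTTCC (NF-kB, 4.93%) gave no match in the 4 windows. G and C made up 63.6% of the Sod2 window, 60.0% of that of Cyba, 54.4% of that of Ncf1 and 34.0% of that of Cybb, beside a median of 52.4% over all promoters, and the CG pairs numbered 15, 6, 2 and 1. A match describes letters only. Other forms of these sites were not searched, so the lack of a match does not show the lack of a site.

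Of the membrane pair, the catalytic chain was higher and its partner lower in both 4T1-CM libraries. Cybb (ENSMUSG00000015340, GRCm38 chrX:9435252-9487771, minus strand) had 11280 reads in NM-DMSO, 11582 in NM-CH223191, 52998 in CM-DMSO and 47261 in CM-CH223191, or 708, 728, 3027 and 2909 CPM. The NM libraries lay close together and both 4T1-CM libraries far above them. The log2 ratio of 4T1-CM to NM was 2.10 with DMSO (95% interval 2.07 to 2.13, 4.28-fold) and 2.0 with CH223191 (1.97 to 2.03, 3.99-fold). Cybb ranked 34 among all genes by mean level.

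Cyba (ENSMUSG00000006519, chr8:122424776-122432930, minus strand), which encodes the p22phox chain that stabilises the catalytic subunit and docks p47phox, differed in the other direction. It had 21352 reads in NM-DMSO, 20030 in NM-CH223191, 14550 in CM-DMSO and 12765 in CM-CH223191, or 1340, 1260, 831 and 786 CPM. Both 4T1-CM libraries were below both NM libraries. The log2 ratio was -0.69 with DMSO (-0.72 to -0.66, 1.61-fold lower) and -0.68 with CH223191 (-0.71 to -0.65, 1.60-fold lower).

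**Figure D1:**
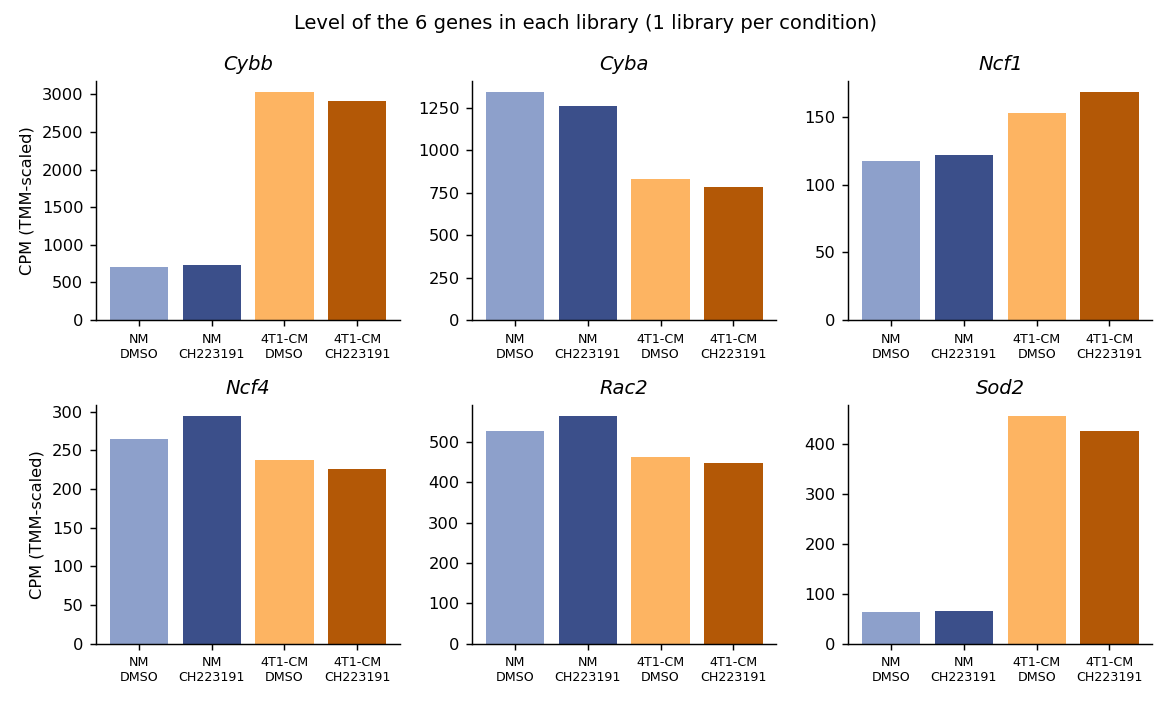
Level of each of the 6 genes (vertical axis, CPM after TMM scaling, starting at 0 and with its own range for each gene) in the 4 libraries, 1 bar per library and no error bar because each condition has 1 library. In both 4T1-CM libraries Cybb (3027 and 2909 CPM) and Sod2 (456 and 426 CPM) sit above both NM libraries and Cyba (831 and 786 CPM) below them, while the bars of Ncf1, Ncf4 and Rac2 differ by less than 1.5-fold.

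The ratio of the 2 transcripts within a library does not depend on the scaling between libraries. Per kilobase, Cybb stood at 0.0945 of Cyba in NM-DMSO, 0.103 in NM-CH223191, 0.652 in CM-DMSO and 0.662 in CM-CH223191. The ratio was thus 6.90-fold higher in CM-DMSO (95% interval 6.70 to 7.10) and 6.40-fold higher with CH223191 (6.21 to 6.60). Cyba was still the more abundant of the pair in every library.

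The cytosolic members and the GTPase lay much nearer to equality. Ncf1 (ENSMUSG00000015950, chr5:134220053-134229625, minus strand), the organiser p47phox whose phosphorylation starts assembly, had 1869, 1941, 2688 and 2736 reads in the order NM-DMSO, NM-CH223191, CM-DMSO and CM-CH223191, which is kept below. Both 4T1-CM libraries were above both NM libraries, with log2 ratios of 0.39 with DMSO (0.30 to 0.47, 1.31-fold) and 0.46 with CH223191 (0.38 to 0.55, 1.38-fold). The neighbouring gene Gtf2ird2, on the opposite strand, covers 408 of the 3663 exon bases of Ncf1 and had 98 to 130 reads.

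Ncf4 (ENSMUSG00000071715, chr15:78244801-78262580, plus strand), the p40phox subunit that binds the phagosomal lipid phosphatidylinositol 3-phosphate, had 4218, 4676, 4165 and 3678 reads. It was slightly lower in 4T1-CM, by a log2 ratio of -0.15 with DMSO (-0.22 to -0.09) and -0.38 with CH223191 (-0.44 to -0.31). Rac2 (ENSMUSG00000033220, chr15:78559167-78572783, minus strand), the Rac GTPase of blood cells that switches the assembled oxidase on, had 8409, 8960, 8080 and 7255 reads. Its log2 ratio was -0.19 with DMSO (-0.24 to -0.15) and -0.34 with CH223191 (-0.38 to -0.29). In CPM, both genes were lower in each 4T1-CM library than in each NM library, by less than 1.5-fold.

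Sod2 (ENSMUSG00000006818, chr17:13006846-13040063, plus strand) had the largest ratio of the 6. It had 1006 reads in NM-DMSO, 1050 in NM-CH223191, 7979 in CM-DMSO and 6925 in CM-CH223191, or 63.1, 66.0, 456 and 426 CPM. Both NM libraries were alike and both 4T1-CM libraries stood several times above them. The log2 ratio was 2.85 with DMSO (2.76 to 2.95, 7.22-fold) and 2.69 with CH223191 (2.60 to 2.79, 6.45-fold). Of the 50-base words of the Sod2 transcripts, 21.04% also occur in some other gene, most often in AC166110.4 or Rps6ka2. These had 37 to 88 and 673 to 1272 reads, and Rps6ka2 was lower in 4T1-CM, by log2 ratios of -0.51 with DMSO and -0.54 with CH223191.

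**Figure D2:**
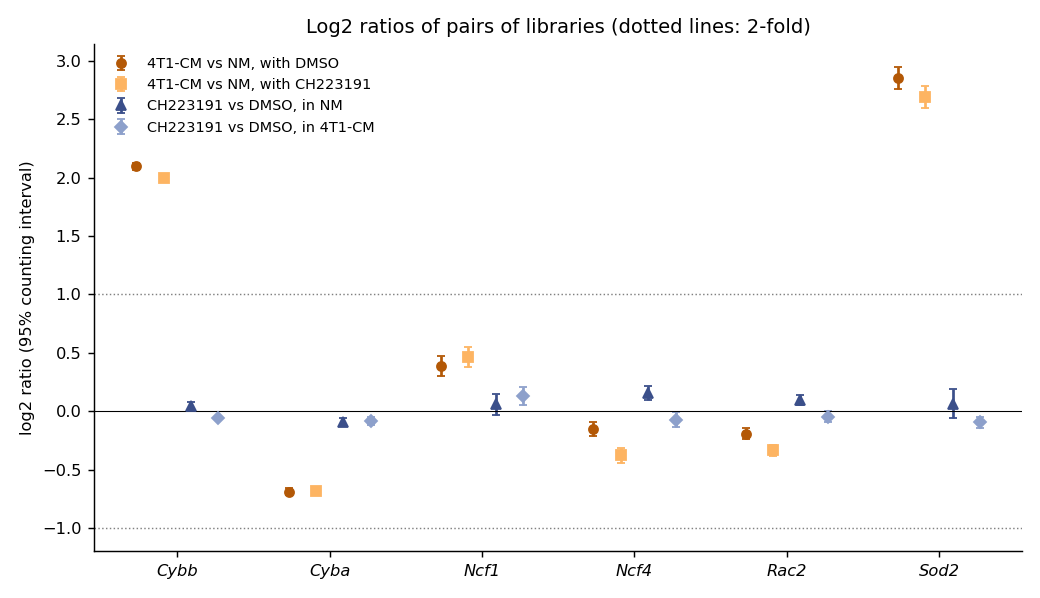
Log2 ratio of each gene in the comparisons of 4T1-CM with NM and of CH223191 with DMSO, with 95% intervals of counting error as bars. Sod2 (2.85 and 2.69) and Cybb (2.10 and 2.0) lie past the 2-fold line in both comparisons of the medium, and no gene reaches it in a comparison of the inhibitor.

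At a 2-fold threshold, 2 of the 6 genes (Cybb and Sod2) were higher in CM-DMSO, beside 12.2% of all 13715 genes, and 0 were lower, beside 6.12%. With CH223191 the same 2 genes were higher, beside 12.0% of all genes, and 0 were lower, beside 7.87%. Past the threshold in both comparisons were 2 of 6 members and 8.18% of all genes. A mean level of 10 CPM was exceeded by all 6 and reached by 8323 genes, of which 5.43% were at least 2-fold higher with DMSO and 5.51% with CH223191. At 1.5-fold the members higher were again 2 of 6, beside 20.1% of genes with DMSO and 20.8% with CH223191, and 1 of 6, Cyba, was lower, beside 15.2% and 17.5%. Cybb lay at the 95.5 and 95.3 percentile of all log2 ratios with DMSO and with CH223191, Sod2 at the 97.4 percentile in both, and Cyba at the 12.0 and 14.3 percentile. The other members were within the middle of the distribution, Ncf1 at 73.2 and 74.6, Ncf4 at 38.0 and 26.6 and Rac2 at 35.4 and 28.8. The members' median log2 ratio was 0.12 with DMSO and 0.06 with CH223191, beside 0.01 and 0.02 over all genes, so the 6 did not move as a block.

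**Figure D3:**
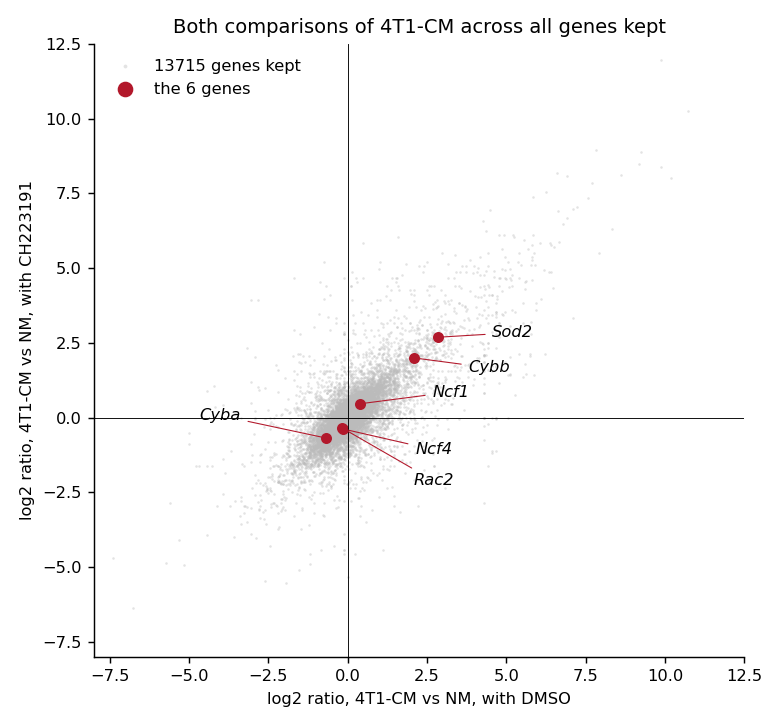
Log2 ratio of 4T1-CM to NM with CH223191 (vertical axis) against that with DMSO (horizontal axis) for 13715 genes in grey, with the 6 genes in red. Sod2 and Cybb lie at the upper right, Ncf1 just above 0 and Ncf4, Rac2 and Cyba below 0 on both axes.

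The 4 libraries allow a test only if the effects of medium and inhibitor are taken as additive, which leaves 1 residual degree of freedom. In that fit by edgeR's quasi-likelihood test with Benjamini-Hochberg adjustment over all genes, the medium term passed an adjusted p of 0.05 for 4 of the 6 genes. It was 2.77 for Sod2 (adjusted p = 1.717e-07), 2.05 for Cybb (5.659e-07) and 0.43 for Ncf1 (0.0231), 3 members higher beside 16.4% of all genes. It was -0.68 for Cyba (0.001369), 1 member lower beside 16.2% of all genes. Ncf4 (-0.27, adjusted p = 0.1412) and Rac2 (-0.26, 0.1282) did not pass. The inhibitor term passed for 0 of 6 members and for 0.0802% of all genes, with adjusted p between 0.909 and 0.992 for the 6, and 0 of 6 had an unadjusted p below 0.05. The spread in this fit is the departure from additivity in 4 libraries, not the spread between cultures.

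The AHR antagonist went with small differences in the 6 genes, both in NM and in 4T1-CM. At 2-fold, 0 of 6 were higher and 0 lower with CH223191 in NM, beside 4.84% and 3.31% of all genes, and 0 and 0 in 4T1-CM, beside 2.75% and 2.66%. In NM the log2 ratios of CH223191 to DMSO ran from -0.09 for Cyba (-0.12 to -0.06) to 0.15 for Ncf4 (0.09 to 0.21). In 4T1-CM they ran from -0.10 for Sod2 (-0.14 to -0.05) to 0.13 for Ncf1 (0.06 to 0.21). Cyba was lower with CH223191 in both media, -0.08 in 4T1-CM (-0.12 to -0.05), and Ncf1 higher in both, although its interval in NM (0.06, -0.03 to 0.15) covered 0.

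For Cybb and Sod2 the response to 4T1-CM was slightly smaller with the antagonist than without it. For Cyba and Ncf1 the counting interval of the difference covered 0. The small negative ratios of Ncf4 (-0.15 with DMSO, -0.38 with CH223191) and Rac2 (-0.19 and -0.34) were larger in size with the antagonist. The log2 ratio with CH223191 less that with DMSO was -0.10 for Cybb (-0.14 to -0.06), 0.01 for Cyba (-0.04 to 0.05), 0.08 for Ncf1 (-0.04 to 0.19), -0.22 for Ncf4 (-0.31 to -0.14), -0.14 for Rac2 (-0.21 to -0.08) and -0.16 for Sod2 (-0.29 to -0.03). All 6 lay between the quartiles, -0.24 and 0.22, of the 11765 genes that had 10 reads or more in all libraries. With CH223191 present, Cybb was still 3.99-fold and Sod2 6.45-fold higher in 4T1-CM.

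Per length, the order of the members differed between the media. In both NM libraries the order was Cyba, Rac2, Ncf4, Cybb, Ncf1 and Sod2, and in NM-DMSO the levels were 1289, 170, 131, 122, 32.0 and 6.31 RPKM. In 4T1-CM with DMSO Cyba (800 RPKM) was followed by Cybb (521), Rac2 (149), Ncf4 (118), Sod2 (45.5) and Ncf1 (41.9). In 4T1-CM with CH223191 the levels were 756 for Cyba, 501 for Cybb, 144 for Rac2, 112 for Ncf4, 46.0 for Ncf1 and 42.6 for Sod2. Cybb thus passed Rac2 and Ncf4, and Sod2 drew level with Ncf1. The Sod2 to Ncf1 ratio was 1.09 (1.04 to 1.14) and 0.926 (0.886 to 0.968) in the 2 libraries, beside 0.197 and 0.198 in NM, and the order of Sod2 and Ncf1 there depends on the length used. With the longest annotated transcript as the length, Sod2 stood above Ncf1 in both 4T1-CM libraries and Ncf4 above Rac2 in all 4.

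Summed over the 5 oxidase members, the level was 1744 RPKM in NM-DMSO, 1698 in NM-CH223191, 1630 in CM-DMSO and 1559 in CM-CH223191. The makeup differed more than the sum. Cybb took 6.99% and 7.38% of it in NM and 32.0% and 32.1% in 4T1-CM, and Cyba took 73.9% and 71.4% in NM and 49.1% and 48.5% in 4T1-CM. Ncf1 took 2.57% and 2.95% in 4T1-CM, above both NM libraries, of which NM-DMSO was the lower at 1.84%, while Ncf4 (7.19% to 8.57%) and Rac2 (9.13% to 10.7%) varied less.

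Set against Rac2 and Ncf4, Cybb again stood higher in 4T1-CM. Its ratio to Rac2 was 0.717, 0.691, 3.50 and 3.48 in the 4 libraries, and its ratio to Ncf4 was 0.930, 0.862, 4.43 and 4.47. Between the cytosolic members the ratios were flatter, with Rac2 to Ncf4 at 1.25 to 1.30 in all 4 libraries and Ncf1 to Ncf4 at 0.244, 0.229, 0.356 and 0.410. The ratio of Sod2 to Cybb, the pair that was higher together, was 0.0518 and 0.0526 in NM and 0.0874 and 0.0850 in 4T1-CM.

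**Figure D4:**
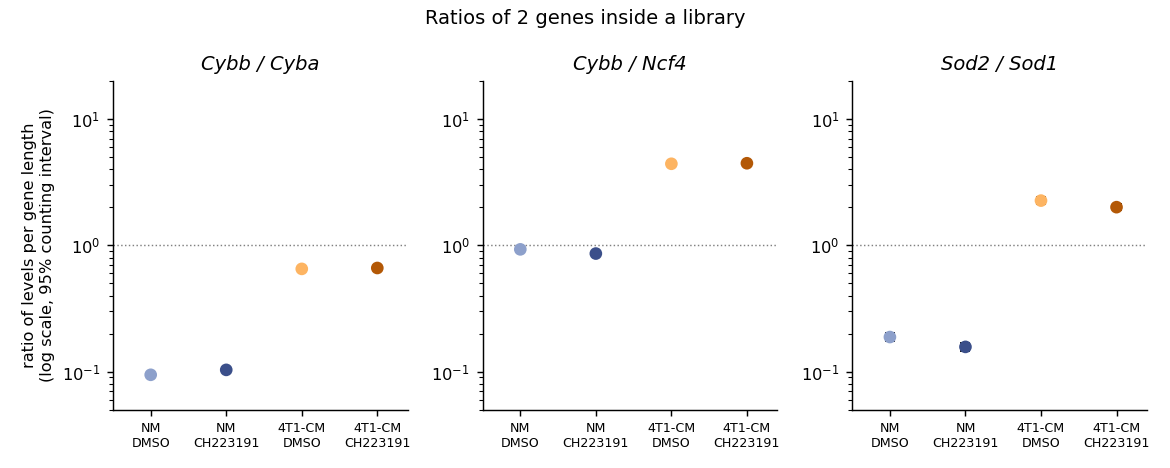
Ratio of the per-length levels of pairs of genes within each library, on a logarithmic axis, where 1 means equal levels. The 95% intervals of counting error are smaller than most points. Cybb to Cyba goes from 0.0945 and 0.103 in NM to 0.652 and 0.662 in 4T1-CM, and Sod2 to Sod1 crosses 1.

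In 4T1-CM the other listed oxidase genes lay nearer to equality than Cybb did. Of 8 listed names, 7 had a row and were kept (BC017643 had none under that name). At 2-fold, 0 of 7 were higher, beside 12.2% of all genes with DMSO and 12.0% with CH223191, and 0 lower, beside 6.12% and 7.87%. A count of 0 of 7 is near these shares. At 1.5-fold, 2 of 7 were higher with DMSO, beside 20.1% of all genes. With CH223191, 1 was higher, beside 20.8%, and 1 lower, beside 17.5%. The median log2 ratio of the 7 was 0.08 with DMSO and -0.04 with CH223191. Cybc1, a chaperone needed for the gp91phox and p22phox pair, had 1190, 1182, 2087 and 2020 reads, with log2 ratios of 0.68 and 0.74. Rap1a, a small GTPase found with the membrane pair, had 1201 to 1451 reads and log2 ratios of 0.11 and 0.08.

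The remaining partners differed between the NM libraries. Arhgdib, a GDP dissociation inhibitor that holds Rac in the cytosol, had 1683 reads in NM-DMSO and 2764 in NM-CH223191, against 3093 and 2756 in 4T1-CM, so that its log2 ratio was 0.74 with DMSO and -0.04 with CH223191. Hvcn1, the proton channel that balances the charge moved by the oxidase, had 2954, 4069, 3428 and 3248 reads (0.08 and -0.36), and Arhgdia, a related inhibitor, 14669, 18686, 13312 and 11942 (-0.28 and -0.68). Rac1, the widely expressed Rac, had 6121, 4777, 5283 and 4805 reads (-0.35 and -0.02), but it shares 2309 of 4496 exon bases with Daglb on the opposite strand, and whether reads were counted by strand is not stated. Per length, Rac2 stood above Rac1 in every library, at 1.99, 2.72, 2.22 and 2.19 times its level.

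A list of 15 held kinases, lipid enzymes and exchange factors that switch the oxidase on. With DMSO, 0 were 2-fold higher and 3 lower, beside 12.2% and 6.12% of all genes. With CH223191, 1 was higher and 2 lower, beside 12.0% and 7.87%. The medians of the list were -0.31 and 0.02. Lower in both were Dock2, a Rac exchange factor of blood cells, with 6967, 6826, 3381 and 3107 reads (log2 ratios -1.18 and -1.17), and Pak1, a kinase that acts downstream of Rac and can phosphorylate p47phox, with 609, 471, 274 and 238 reads (-1.29 and -1.01). The genes past the line in 1 comparison, named after their values were seen, were Prkcb, a protein kinase C (-1.01 with DMSO, -0.60 with CH223191), and Prex1, another Rac exchange factor (0.94 and 1.20). Of 9 other NADPH oxidase genes, 1 was kept, Noxo1 with 11, 9, 15 and 22 reads (log2 ratios 0.30 and 1.22), and 4 had 0 reads in every library, among them Duox1 and Duox2. At this depth the floor of 3 reads used for folds equals 0.171 to 0.189 CPM. Nox1, Nox3 and Nox4 had at most 2 reads, so no other catalytic chain of an NADPH oxidase on the list had more than 2 reads in a library.

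The other superoxide dismutases were lower in 4T1-CM or nearly without reads. Sod1, the copper and zinc dismutase of the cytosol, had 2122, 2649, 1399 and 1369 reads, with log2 ratios of -0.74 with DMSO and -0.98 with CH223191, and its copper chaperone Ccs had 337, 510, 210 and 198 reads (-0.82 and -1.39). The extracellular enzyme Sod3 had 0, 0, 3 and 4 reads. Within a library and per length, Sod2 stood at 0.188 of Sod1 in NM-DMSO, 0.157 in NM-CH223191, 2.26 in CM-DMSO and 2.01 in CM-CH223191. That ratio was 12.0-fold higher in CM-DMSO (11.0 to 13.2) and 12.8-fold with CH223191 (11.6 to 14.0), and the mitochondrial enzyme went from the lesser to the greater of the 2 transcripts.

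From the list of other dismutases and peroxide-removing enzymes 15 genes were kept. With DMSO, 2 were at least 2-fold higher and 0 lower, beside 12.2% and 6.12% of all genes. With CH223191, 1 was higher and 2 lower, beside 12.0% and 7.87%. The medians of the 15 were 0.04 and -0.29. Prdx6, a peroxiredoxin that reduces lipid peroxides, was the only one higher in both, with 1514, 1545, 3659 and 3565 reads (1.14 and 1.18). Prdx5, a peroxiredoxin of mitochondria and peroxisomes, had 3210, 4531, 8367 and 7790 reads (1.25 and 0.75). Of the other mitochondrial members of the list, all named after their values were seen, Prdx3 was at -0.38 and -0.29, Txn2 at -0.32 and -0.62, Txnrd2 at -0.66 and -1.21, Glrx2 at 0.14 and -0.57 and Sirt3 at 0.31 and -0.09. Catalase (Cat, -0.07 and -0.30) and Gpx1 (0.04 and -0.27) were near equality.

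**Figure D5:**
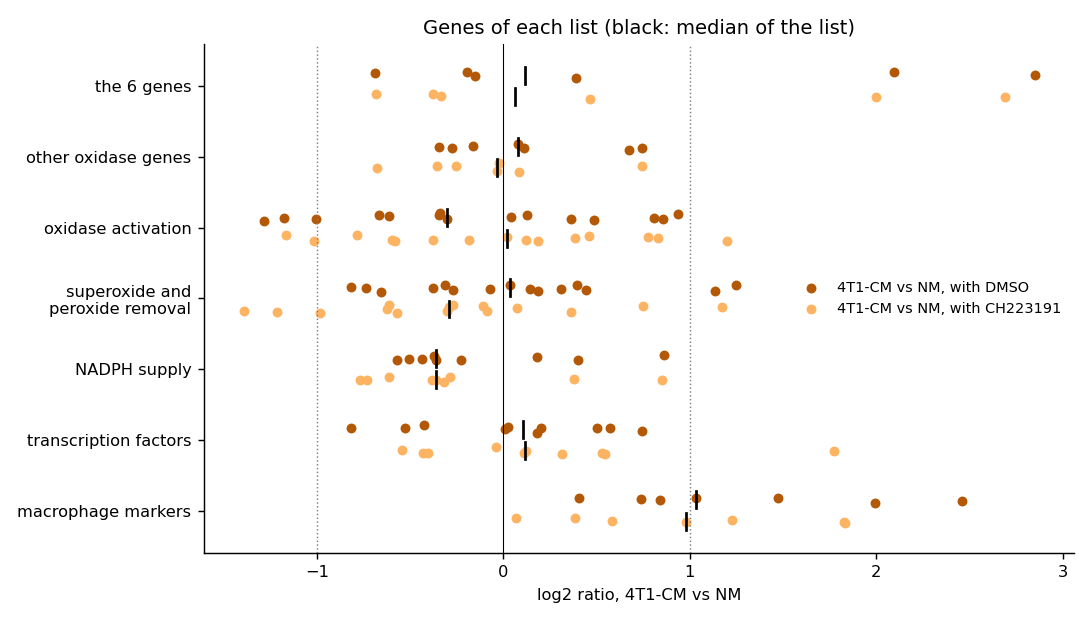
Log2 ratio of 4T1-CM to NM for each gene of the 6 members and of the lists around them, with DMSO (dark) and with CH223191 (light), and the median of each list as a black bar. Only Cybb and Sod2 among the 6 pass 2-fold (dotted lines), none of the 7 other genes of the phagocyte oxidase does, and the macrophage markers have medians of 1.03 and 0.98.

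Genes that supply the NADPH used by the oxidase were not higher as a list. Of 9 enzymes, 0 were 2-fold higher in either comparison, beside 12.2% of all genes with DMSO and 12.0% with CH223191. None was 2-fold lower, beside 6.12% and 7.87%, and the median of the 9 was -0.36 in both. G6pdx, the entry enzyme of the pentose phosphate pathway, had 3603, 4284, 3060 and 2570 reads (-0.37 and -0.77), and Pgd, its second NADPH-making enzyme, 10629, 12113, 9973 and 8075 (-0.23 and -0.62). Of 6 other enzymes that make radicals or hypochlorous acid, 2 were kept. Xdh, xanthine dehydrogenase, had 3822, 3507, 8701 and 8884 reads (1.05 and 1.31), and Nos2, inducible nitric oxide synthase, 0, 1, 45 and 44.

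Among 10 transcription factors known to act on these genes, 0 were past 2-fold with DMSO, beside 12.2% of all genes higher and 6.12% lower. With CH223191, 1 was higher, beside 12.0%, and 0 lower, beside 7.87%. The medians of the 10 were 0.10 and 0.12. Spi1 (PU.1), which drives Cybb in myeloid cells, had 6079, 6363, 4965 and 4467 reads (-0.43 and -0.54), while Irf8 (0.03 and 0.12) and Irf1 (0.01 and -0.04), which act on the same promoter, were near equality. Nfkb1 (0.57 and 0.53) and Rela (0.18 and 0.32) were higher by less than 2-fold. The gene past the line was Cebpb, with 3639, 1777, 5653 and 6208 reads (0.50 and 1.77), whose NM libraries differed by -1.03.

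Among 8322 other genes whose mean level reached 10 CPM, few had the profile of Cybb or Sod2. Likeness was the Euclidean distance between log2 CPM profiles over the 4 libraries, each centred on its own mean. The nearest to Cybb were Mfap3l (0.099), Osm (0.134), the cytokine oncostatin M, and Fcgr2b (0.141), the inhibitory Fc receptor, and 1 gene lay within 0.1. The nearest to Sod2 were Tnip3 (0.141) and Zc3h12a (0.162), both inhibitors of inflammatory signalling, and Gsap (0.161), and 0 genes lay within 0.1. Cyba had 64 genes within 0.1, the nearest Pepd, Lbr and Uap1l1 (0.021 to 0.024), and Ncf1 had 68, the nearest Zfp386, Cdc16 and Xist (0.028 to 0.032). Ncf4 (189 genes, the nearest Ctsa, Ift20 and Psmc2) and Rac2 (205 genes, the nearest Eif2d, Eif2b4 and Pdcl) had the most genes within 0.1.

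Other markers moved with the medium too, and their part in the values of the 6 genes was not tested. Of the macrophage markers, 4 of 7 were 2-fold higher in 4T1-CM with DMSO, beside 12.2% of all genes. With CH223191 they were 3 of 7, beside 12.0%. Adgre1 was at 1.99 and 1.83 and Csf1r at 1.03 and 0.98. Neutrophils hold much of the same oxidase. Of 11 neutrophil markers 4 were kept, and Ly6g, S100a9 and Retnlg had 0 reads in every library. Also not kept were Camp with 0, 4, 4 and 6 reads, Ltf with 2, 4, 1 and 1, Ngp with 0, 0, 8 and 7 and Elane with 1, 0, 3 and 0. The summed level of the 11 was 67.6, 74.6, 242 and 181 CPM, higher in both 4T1-CM libraries. Of these, S100a8 had 99, 190, 560 and 412 reads (log2 ratios 2.36 and 1.08), Mmp8 35, 21, 2142 and 759 (5.78 and 5.11) and Csf3r 929, 959, 1521 and 1759. The remaining kept marker, Cxcr2, went the other way, with 12, 9, 2 and 0 reads. The 6 fibroblast markers, of which 5 were kept, summed to 63.1, 30.1, 149 and 127 CPM. The sums of 6 B cell markers (1 kept) were 20.2, 34.3, 7.94 and 5.29 CPM and of 4 eosinophil markers (1 kept, Epx and Prg2 at 0) 16.3, 14.4, 6.17 and 5.79 CPM. The T cell genes Cd3d, Cd3e and Cd3g were at 0, with Il7r (8222 to 12732 reads) and Lck the only kept of 5. Of 5 markers each of mast cells, dendritic cells and 4T1 epithelium, 0, 3 and 1 were kept, the dendritic cell sum was 1.01 to 3.77 CPM and the epithelial sum 0.439 to 1.35 CPM, with Krt19 at 0.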

How the data were processed

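Total RNA was extracted with TRIzol and libraries were made with a NEBNext Ultra kit, per the labels. The authors deposited raw read counts per gene in 1 table of 54532 genes, which also holds gene lengths. The submitters' processing notes name HISAT2 2.0.5 and DESeq2, and the counter and the strand setting for these libraries are not given in the sources used here. Of symbols listed more than once the entry with the most reads kept the symbol, and 103 entries were named by identifier. The 13715 genes that reached 10 reads in 1 library or more were kept, and libraries were scaled by TMM in edgeR 4.0.16 (R 4.3.3). A prior count of 0.5 was added for log2 ratios, and no fold is given against a library with 3 reads or fewer. Intervals of ratios between libraries are exact Clopper-Pearson intervals at 95%, those of differences of ratios and of pairs of genes use Poisson variances. The steps were tested on simulated data. RPKM values used the deposited length. Genes named outside the members are those of fixed lists past 2-fold in both comparisons of 4T1-CM, other oxidase and dismutase genes with at least 100 reads in a library, and the 3 nearest profiles of each member. Other genes were named after their values were seen, and some genes of these lists are not reported here. The members and lists were chosen with earlier results of these data known. Alternatives were DESeq2 1.42.0 size factors, total counts, other filters, a prior count of 5, a 1.5-fold threshold, protein-coding genes alone, the longest transcript as length and an additive edgeR fit. Libraries range from 15535405 to 17557127 counts. No paired analysis was possible because each condition has 1 library.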

Additional observations from a re-analysis of the deposited data

Results flagged for a closer look

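For 3 genes the ratio of CH223191 to DMSO had opposite signs in the 2 media, with counting intervals on either side of 0. The difference between the media was not tested against replicates. The log2 ratio of Cybb was 0.042 in NM and -0.058 in 4T1-CM. That of Ncf4 was 0.152 in NM and -0.072 in 4T1-CM. That of Rac2 was 0.095 in NM and -0.048 in 4T1-CM, where its interval ended at -0.0017. The sign for Cybb in NM turns when libraries are scaled by total counts.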

How the results depend on the processing

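The 2-fold calls of Cybb and Sod2 in both comparisons of 4T1-CM were made under each alternative run, and Cyba was lower in each. Lowering the threshold to 1.5-fold added 1 member lower, Cyba, in each comparison of 4T1-CM. Of 30 log2 values of the members per alternative, all 30 moved by less than their counting interval with DESeq2 size factors (at most 0.012), no filter (0.0239), a prior count of 5 (0.0054), 10 reads in all libraries (0.0225) and protein-coding genes alone (0.0049). Scaling by total counts moved 6 and reversed 1, Cybb for CH223191 in NM, at -0.016 (largest move 0.0576). The additive fit, which gives 1 value for both media, moved 10 of 24 and reversed 3, Cybb for CH223191 in NM (-0.0081) and, in 4T1-CM, Ncf4 (0.0404) and Rac2 (0.0237). The largest move was 0.1121, so member differences of that size between CH223191 and DMSO depend on these choices, and 1 library per condition gives no measure of the spread between cultures. No paired analysis was possible because each condition has 1 library.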
